A study of Homo sapiens with 4 samples.

Results

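The genes described here encode the TCF/LEF transcription factors and the proteins that sit with beta-catenin at their target genes: TCF7, LEF1, TCF7L1 and TCF7L2, the bridging proteins BCL9 and BCL9L, the Pygopus proteins PYGO1 and PYGO2, and the Groucho-type co-repressors TLE1 and TLE3. They were taken by gene symbol from the array annotation, 1 transcript cluster (the probes of one gene locus) per gene. Of the 10 genes, 9 had a cluster with exactly 1 symbol, out of 22411 such genes on the array, and TCF7 was not analysed here. LEF1 and PYGO1 lay below the level filter described below, which left 7 genes in the test. RNA came from HCT116 cells, an established line from a human colon carcinoma. The line bears an activating CTNNB1 mutation, which the cells of both groups share. Cells were transfected for 48 h with CTNNB1 siRNA or with control siRNA, each at a final concentration of 50 nM, and each group had 2 biological replicates on 1 array each. The labels give neither the siRNA sequences nor how many siRNAs were used, so the effects of silencing and of the particular siRNA cannot be told apart.

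TCF/LEF factors bind DNA through a high-mobility-group box but have little activating power of their own. Without beta-catenin they recruit TLE proteins, which hold target genes silent. Beta-catenin that reaches the nucleus binds the amino terminus of the TCF factor, BCL9 or BCL9L attaches to beta-catenin, and a Pygopus protein attaches to BCL9 and reads methylated histone tails. TCF7L2 is the best-studied member of the family in intestinal epithelium and colon cancer cells, TCF7L1 acts mostly as a repressor, and TCF7 and LEF1 are themselves often Wnt targets. Genes of the TCF/LEF family also make shorter forms that lack the beta-catenin binding part, and a transcript cluster adds all forms together.

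The targeted gene, CTNNB1, read 6.50 and 6.65 log2 units with CTNNB1 siRNA, against 10.06 and 10.20 with control siRNA, so both arrays of each group carried the level their label implies. Over the tested genes, the correlation between replicates was 0.997 within either treatment and 0.977 to 0.980 across treatments. In both groups 6 of 6 measured epithelial markers lay above the level filter, while 5 of 7 measured markers of blood, endothelial and fibroblast cells lay below it. PTPRC, PECAM1, VWF, COL1A2 and PDGFRB were those 5, and the 2 above it, CD3E and COL1A1, did not pass the test. The epithelial markers were not stable. Of the 6, 5 rose at the limma threshold given below, where 14.2% of all tested genes did. They lie at level percentiles 62.2 to 98.5, and calls were more frequent at higher levels. Their median log2 fold change was 0.48, with a rise of 2.27 log2 units for CDH1, which encodes E-cadherin. Levels are relative to the other RNA on the same array, so a lower level can come from fewer transcripts of the gene or from more of all other RNA, and these cannot be told apart. The number of arrays limits the precision of every value below.

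BCL9 and BCL9L, which encode paralogous bridging proteins, changed in opposite directions after CTNNB1 siRNA, and TCF7L2, TLE1 and TLE3 fell. Of the 7 tested genes, 4 fell, 1 rose and 2, TCF7L1 and PYGO2, did not pass the threshold of an adjusted p under 0.05 in limma (Benjamini-Hochberg over all tested genes). Over all 15679 tested genes, 30.3% were called, 16.1% lower and 14.2% higher, so calls were common in this comparison. They were more frequent at higher levels, with 42.1% of 11201 genes called when only genes above the 50th percentile were tested, where all 7 genes lie. The 7 genes had a median log2 fold change (CTNNB1 siRNA over control siRNA) of -0.49 and a median size of change of 0.51, beside -0.015 and 0.18 over all tested genes. For 7 of 7 tested genes, all values of one group lay on one side of the other group, as they did for 63% of all tested genes.

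**Figure D1:**
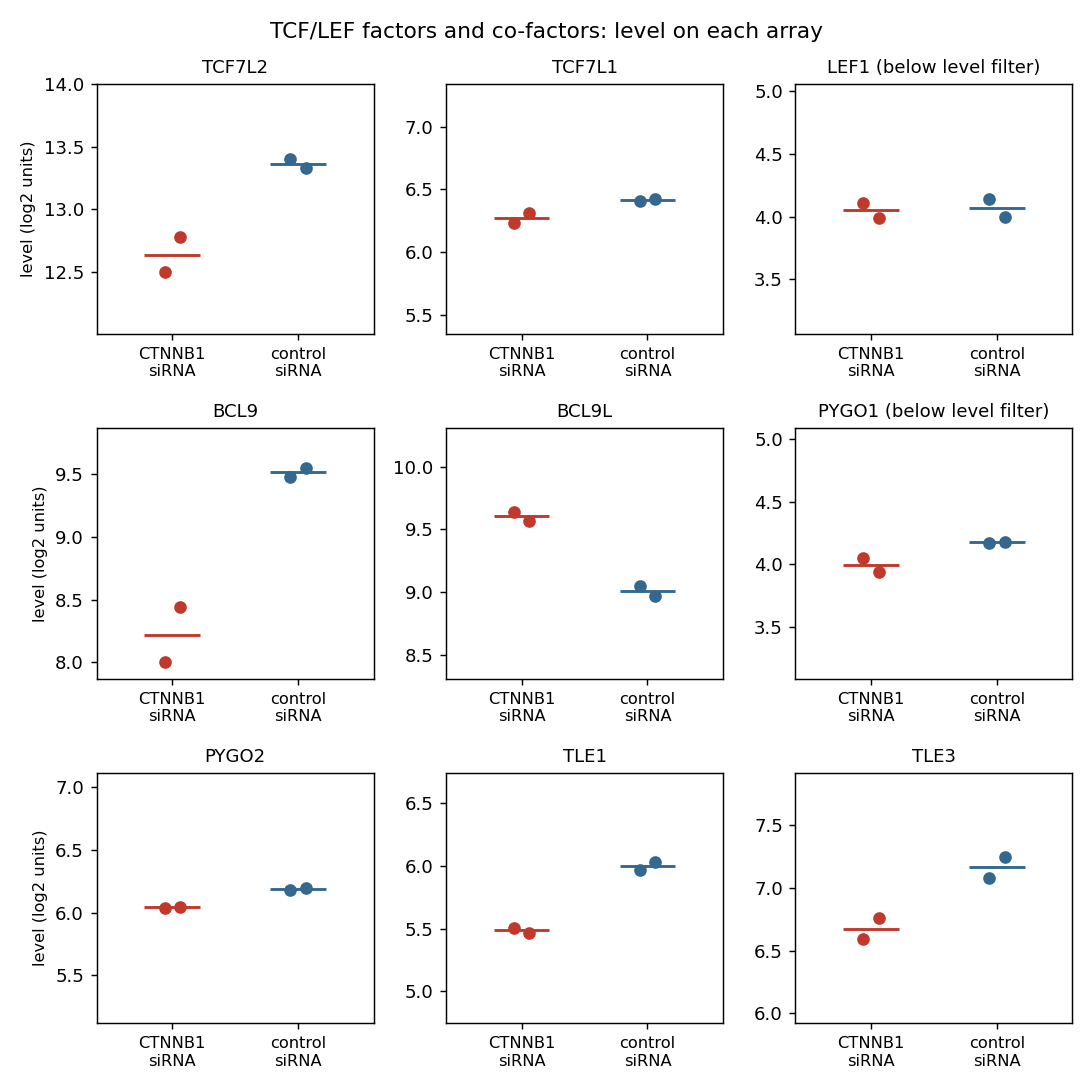
Level of each gene (vertical axis, log2 units) on the 2 CTNNB1 siRNA arrays (red, left) and the 2 control siRNA arrays (blue, right), with the group mean as a line. Every panel spans 2 log2 units, so distances can be compared between panels but heights cannot, and BCL9 shows the widest gap, with 8.0 and 8.44 against 9.48 and 9.55.

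The DNA just before the start sites is shown for the genes with the largest, the next largest and the third largest fall, BCL9, TCF7L2 and TLE1, to let a reader look for TCF/LEF binding words beside genes that fell together. Sequences are from RefSeq on GRCh38.p14, 250 bases ending at the base before the annotated start, 5′ to 3′ on the strand of the gene, with CG dinucleotides in capitals. BCL9 lies at chr1:147541251-147541500 on the plus strand, the first of 3 annotated TCF7L2 starts at chr10:112949997-112950246 on the plus strand, and TLE1 at chr9:81689548-81689797 on the minus strand.
BCL9: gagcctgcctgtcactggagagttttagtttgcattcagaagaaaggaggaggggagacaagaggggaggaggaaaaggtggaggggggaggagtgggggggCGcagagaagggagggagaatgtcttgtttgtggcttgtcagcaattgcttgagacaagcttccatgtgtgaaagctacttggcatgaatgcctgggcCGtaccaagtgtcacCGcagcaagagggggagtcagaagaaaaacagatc
TCF7L2: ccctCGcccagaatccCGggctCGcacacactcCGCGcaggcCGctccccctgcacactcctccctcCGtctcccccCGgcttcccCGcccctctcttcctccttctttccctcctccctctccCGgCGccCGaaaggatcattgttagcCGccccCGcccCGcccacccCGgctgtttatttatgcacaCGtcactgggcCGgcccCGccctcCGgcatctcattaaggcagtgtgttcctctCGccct
TLE1: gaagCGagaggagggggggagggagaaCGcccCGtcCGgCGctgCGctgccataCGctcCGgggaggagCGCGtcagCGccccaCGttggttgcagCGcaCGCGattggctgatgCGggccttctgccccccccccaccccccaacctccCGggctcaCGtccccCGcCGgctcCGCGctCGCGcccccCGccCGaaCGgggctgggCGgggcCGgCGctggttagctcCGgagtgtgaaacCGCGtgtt
The BCL9 window holds 3 CG dinucleotides and has a G and C content of 53.6%, beside medians of 11 and 58.0% over 35116 promoter windows. The TCF7L2 window holds 21 at 68.0%, and the TLE1 window holds 33 at 75.2%. The TCF/LEF core words CTTTGAT and CTTTGAA, which differ in their last letter only, were searched on both strands. RefSeq windows were found for 9 of the 10 genes, 15 windows in all, with none for BCL9L, the gene that rose. Of the 15, 0 held either word, where 5.94% of all windows did. At that share, 15 windows would often hold neither word. The absence of these letters from such a short window says nothing about binding elsewhere at the gene.

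TCF7L2, the main TCF of colon epithelium, fell. Its level was 12.50 and 12.78 log2 units with CTNNB1 siRNA, against 13.40 and 13.33 with control siRNA. Both CTNNB1 siRNA arrays lay below both control arrays, and the CTNNB1 siRNA replicates lay farther apart than the controls. The log2 fold change was -0.73 (SE 0.11, 95% interval -1.01 to -0.44, adjusted p 0.0066 in limma), a 1.65-fold lower level on the deposited scale. The variant of RMA behind that scale is unknown, so all changes given here could be stretched relative to unscaled log2 intensities.

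TCF7L1, the family member that acts mostly as a repressor, did not pass the test. It read 6.23 and 6.31 log2 units with CTNNB1 siRNA, against 6.41 and 6.42 with control siRNA. The groups did not overlap, but the log2 fold change was only -0.15 (SE 0.078, 95% interval -0.34 to 0.05, adjusted p 0.24 in limma). The interval spans a modest fall as well as no change.

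Within each array the TCF7L2 level minus the TCF7L1 level was 6.27 and 6.47 log2 units with CTNNB1 siRNA, against 6.99 and 6.91 with control siRNA. These differences compare changes and not amounts, since the 2 clusters have different probes. The 2 genes changed unequally by -0.58 log2 units (SE 0.12, 95% interval -0.89 to -0.27 with the spread moderated as in limma). An exact 2-sided permutation test of 2 against 2 arrays gave p = 0.33, the smallest it can give, so here the interval carries the comparison. In all, 4 pairs of paralogs were compared in this way, and TCF7 with LEF1 was not.

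LEF1, which many cells switch on in response to Wnt, stayed at a low reading. Its level was 4.11 and 3.99 log2 units with CTNNB1 siRNA, against 4.14 and 4.0 with control siRNA, and the groups overlapped. All 4 values lay below the filter, which was 4.29 log2 units (the 30th percentile of gene means). In a fit of all 22411 genes without the filter, where 19.9% were called, the LEF1 log2 fold change was -0.02 (SE 0.09, adjusted p 0.95 in limma). A change of LEF1 was not detectable at this signal.

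BCL9, whose protein bridges beta-catenin to Pygopus, showed the largest change among the 7 tested genes, and ranked 449 by size of change among all 15679. It read 8.0 and 8.44 log2 units with CTNNB1 siRNA, against 9.48 and 9.55 with control siRNA. The lower control array was still more than a log2 unit above the higher CTNNB1 siRNA array. The log2 fold change was -1.30 (SE 0.15, 95% interval -1.67 to -0.92, adjusted p 0.0025 in limma), a 2.45-fold lower level. It ranged from -1.52 without CTNNB1 siRNA replicate 2 to -1.07 without CTNNB1 siRNA replicate 1.

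BCL9L, the paralog that can take the place of BCL9 on beta-catenin, was the only one of the 7 tested genes that rose. Its level was 9.64 and 9.57 log2 units with CTNNB1 siRNA, against 9.05 and 8.97 with control siRNA, with close replicates in both groups and no overlap. The log2 fold change was 0.60 (SE 0.081, 95% interval 0.39 to 0.80, adjusted p 0.0040 in limma), a 1.51-fold higher level.

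The opposite shifts of the 2 paralogs were also seen array by array. The BCL9 level minus the BCL9L level was -1.64 and -1.13 log2 units with CTNNB1 siRNA, against 0.43 and 0.58 with control siRNA. The 2 genes changed unequally by -1.89 log2 units (SE 0.19, 95% interval -2.36 to -1.42), with an exact 2-sided permutation p of 0.33, again the smallest possible. With any 1 array left out the inequality lay between -2.15 and -1.64.

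**Figure D2:**
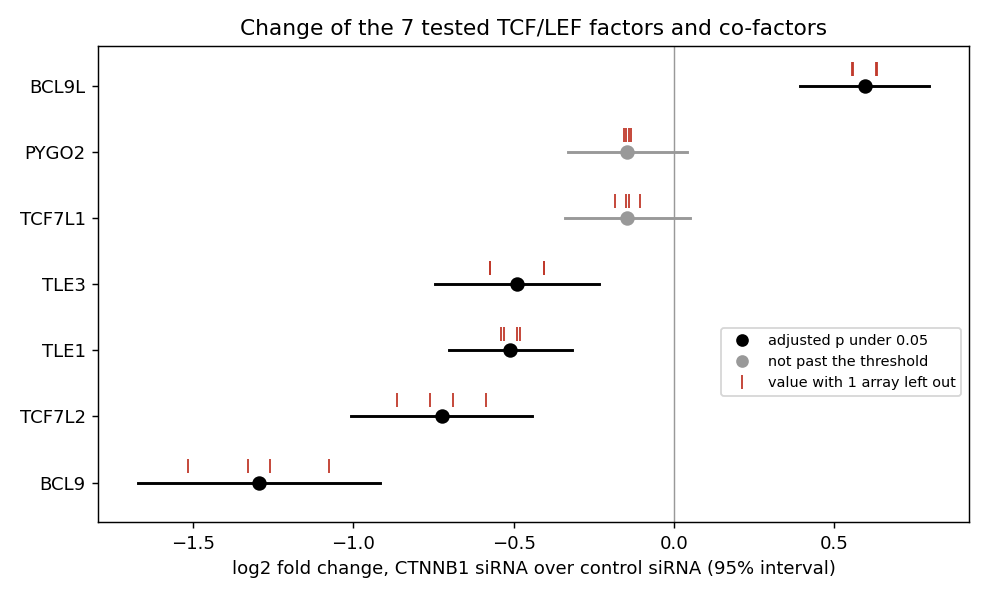
Log2 fold change (horizontal axis, CTNNB1 siRNA over control siRNA) for the 7 tested genes, and its 95% interval in limma. Black points passed an adjusted p of 0.05, grey points did not, and red ticks give the value with 1 array left out. BCL9L alone lies right of 0, at 0.60, and BCL9 lies farthest left, at -1.30.

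Neither Pygopus gene was called, since PYGO2 did not pass the test and PYGO1 was left out of it. PYGO2, the form found in most tissues, read 6.04 and 6.05 log2 units with CTNNB1 siRNA, against 6.18 and 6.20 with control siRNA. The replicates were nearly equal and the groups did not overlap, with a log2 fold change of -0.15 (SE 0.075, 95% interval -0.33 to 0.04, adjusted p 0.22 in limma). PYGO1, its paralog of narrower expression, read 4.05 and 3.94 log2 units with CTNNB1 siRNA, against 4.17 and 4.18 with control siRNA. These values lie below the level filter. Without the filter the PYGO1 log2 fold change was -0.18 (SE 0.079, adjusted p 0.20 in limma). The PYGO1 change minus the PYGO2 change was -0.04 log2 units (95% interval -0.31 to 0.24, exact 2-sided permutation p = 1).

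TLE1 and TLE3, co-repressors of the Groucho family that bind TCF factors in place of beta-catenin, fell by similar amounts. TLE1 read 5.51 and 5.47 log2 units with CTNNB1 siRNA, against 5.97 and 6.03 with control siRNA. The log2 fold change was -0.51 (SE 0.077, 95% interval -0.70 to -0.32, adjusted p 0.0059 in limma), a 1.42-fold lower level with close replicates.

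TLE3 read 6.59 and 6.76 log2 units with CTNNB1 siRNA, against 7.08 and 7.25 with control siRNA. Its replicates lay farther apart than those of TLE1 in both groups, and the groups did not overlap. The log2 fold change was -0.49 (SE 0.10, 95% interval -0.75 to -0.23, adjusted p 0.018 in limma), a 1.40-fold lower level. This call was lost when all 67528 clusters of the array were tested together, where limma gave an adjusted p of 0.082. The TLE1 change minus the TLE3 change was -0.02 log2 units (95% interval -0.33 to 0.29, exact 2-sided permutation p = 1).

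The other TLE genes, described here after their values were seen, gave smaller differences. TLE5, which encodes a short family member that lacks most of the repressor body, had a log2 fold change of -0.24 (SE 0.08, adjusted p 0.074 in limma). TLE2 was at -0.06 (SE 0.085, adjusted p 0.68) and TLE6 at -0.03 (SE 0.076, adjusted p 0.86). TLE4 lay below the filter, with 4.05 and 3.94 log2 units with CTNNB1 siRNA, against 4.05 and 4.03 with control siRNA.

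**Figure D3:**
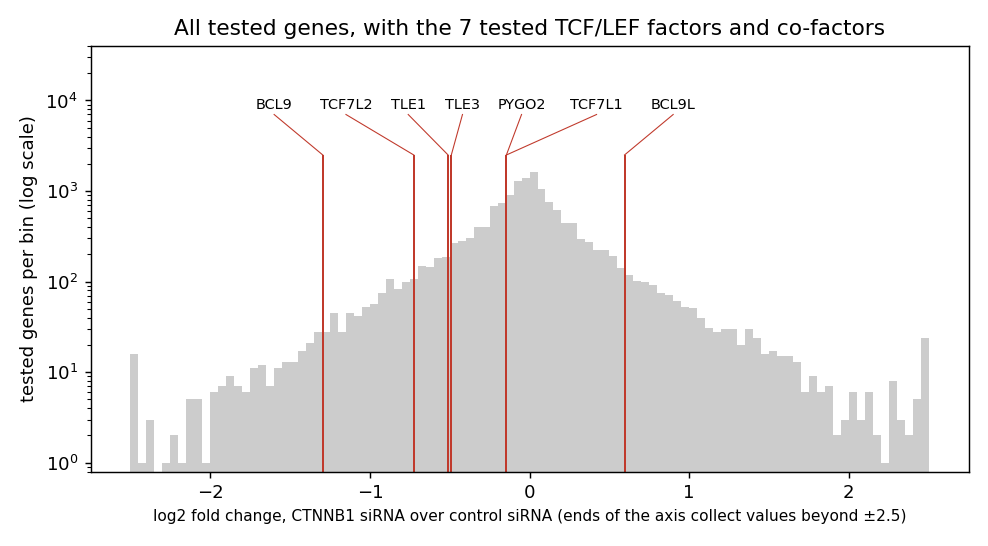
Distribution of log2 fold changes, CTNNB1 siRNA over control siRNA, for all 15679 tested genes (grey bars, number of genes per bin on a log scale), with the 7 tested genes as red lines. BCL9 at -1.30 stands in the left tail, TCF7L1 and PYGO2, both at -0.15, near the centre, and BCL9L at 0.60 on the right.

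Other co-activators of the beta-catenin complex moved in both directions. Of 26 listed, 25 were measured and tested, and 10 fell, 5 rose and 10 did not pass. That is 60% called, beside 30.3% of all tested genes. In the fit of genes above the 50th percentile, where all 25 lie, 16 of them were called, beside 42.1% of all genes there. The 25 lie between level percentiles 69.7 and 98.6, where calls may be more frequent still, so neither share is matched to their level. Their median log2 fold change was -0.22, beside -0.015 over all tested genes. CDK19, a kinase of the Mediator complex, fell by 0.98 on the log2 scale (SE 0.15), and ASH2L, a subunit of histone methyltransferase complexes, fell by 0.89 (SE 0.075). RTF1, which works with the PAF1 elongation complex, fell by 0.65 (SE 0.083), and RUVBL1, an ATPase of chromatin remodelling complexes, fell by 0.61 (SE 0.079). MED13, which tethers the kinase module to Mediator, rose by 0.61 (SE 0.093). In limma, the adjusted p-values of all 5 lay between 0.00099 and 0.0065.

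Further co-activators are named here after their values were seen. In the kinase module of Mediator, MED13 and CCNC, which encodes cyclin C, rose, CCNC by 0.42 log2 units (SE 0.076), while CDK19 and MED12 fell, MED12 by 0.34 (SE 0.077). The calls of CCNC and MED12 were lost when all clusters were tested, with adjusted p-values of up to 0.066 and 0.12 in limma. CDK8, the paralog of CDK19 and a kinase linked to beta-catenin activity in colon cancer, read 11.11 and 11.10 log2 units with CTNNB1 siRNA, against 10.86 and 10.84 with control siRNA. Its log2 fold change of 0.26 (SE 0.075) missed the threshold (adjusted p 0.051 in limma). CDC73, which encodes a beta-catenin binding subunit of the PAF1 complex, rose by 0.58 (SE 0.11), and PAF1 by 0.45 (SE 0.082), while LEO1 and CTR9 of the same complex did not pass. Both rises lost their call with all clusters tested (adjusted p up to 0.061 for PAF1 in limma), and that of CDC73 also with a replicate block, at an adjusted p of 0.068.

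Co-repressors and inhibitors were called at about the rate of all genes. Of 20 listed and measured, 17 were tested, and 4 fell, 1 rose and 12 did not pass, which is 29.4% beside 30.3%. The classes are loose for XIAP, counted here and not called, and for XPO1, counted among the co-activators that fell. Both were named after their values were seen. HDAC1, a histone deacetylase recruited by TLE proteins, read 9.13 and 9.73 log2 units with CTNNB1 siRNA, against 11.35 and 11.41 with control siRNA. HDAC1 thus fell by 1.95 log2 units (SE 0.19, adjusted p 0.0016 in limma), although its CTNNB1 siRNA replicates differed by more than those of any of the 7 tested genes above. HDAC2, its paralog, fell by 0.77 (SE 0.077), HBP1, which blocks DNA binding by TCF factors, fell by 0.62 (SE 0.13), and the co-repressor gene CTBP2 fell by 0.42 (SE 0.10). The HBP1 call was lost with all clusters tested, and that of CTBP2 also with arrays centred on the median and with a replicate block, with adjusted p-values in limma of up to 0.072 and 0.13. HIPK2, a kinase that phosphorylates TCF factors, rose by 0.75 (SE 0.092). CTNNBIP1, which encodes the beta-catenin inhibitor ICAT and was named after its value was seen, was at 0.03 (SE 0.09) and did not pass.

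**Figure D4:**
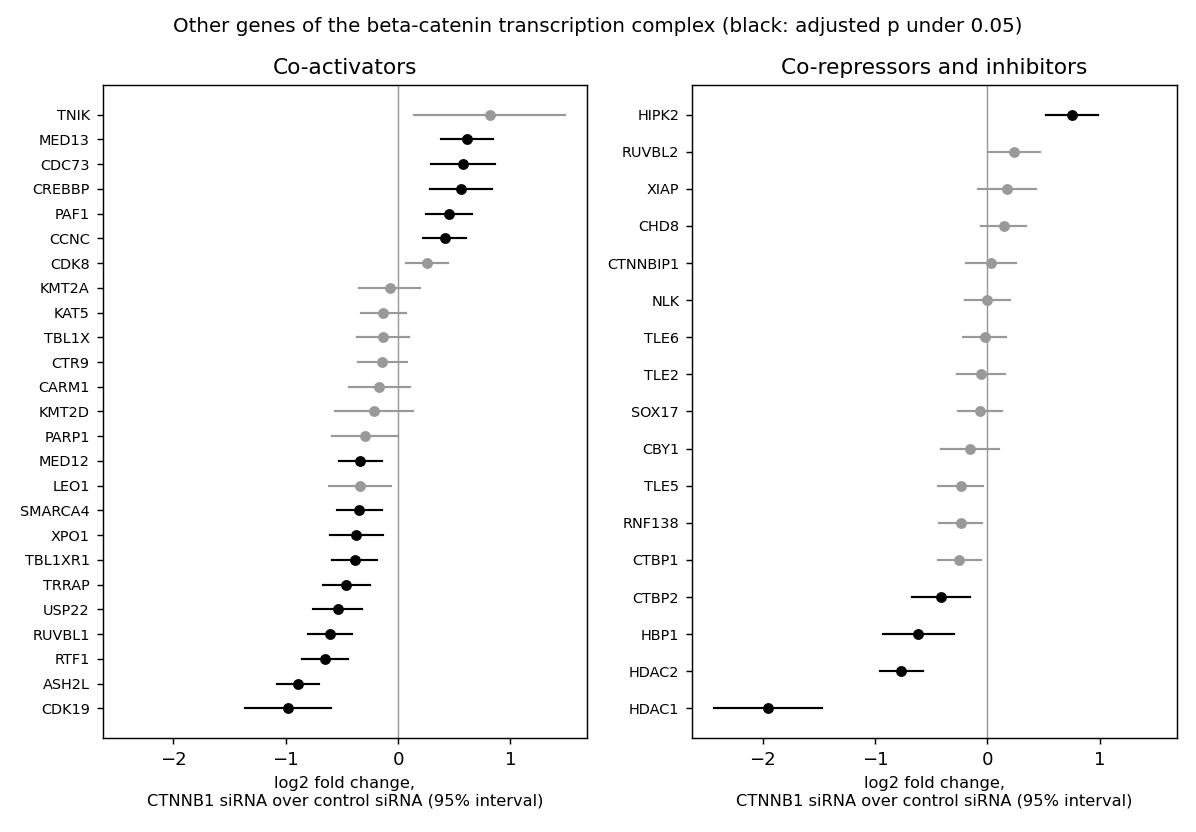
Log2 fold change (horizontal axis, CTNNB1 siRNA over control siRNA) and its 95% interval for 25 co-activators (left) and 17 co-repressors and inhibitors (right), black where the adjusted p was under 0.05. HDAC1 at -1.95 lies farthest from 0, and co-activators spread from -0.98 for CDK19 to 0.82 for TNIK, named after its value was seen, which passed only with a replicate block (adjusted p 0.021 in limma).

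Other gene groups moved in the same arrays. Of 10 genes regulated by beta-catenin and TCF in colon cells, 7 were tested, and AXIN2, RNF43, ZNRF3, MYC and CCND1 fell. NKD1 and NOTUM did not pass, and LGR5, ASCL2 and SP5 lay below the filter. Over all tested genes, 16.1% were called lower and 14.2% higher. Of 10 proliferation genes 10 fell, with a median log2 fold change of -0.98. Of 8 tested interferon-stimulated genes 4 rose and 4 did not pass, with changes from 0.09 to 2.12 and a median of 0.25. The part of these shifts in the changes of the TCF/LEF factors and co-factors was not tested.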

How the data were processed

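Total RNA was labelled with biotin and hybridised to whole-transcript arrays, with 1 array for each sample. Per the submitters' processing notes, the authors used Affymetrix Expression Console and RMA, and the deposited values are log2 levels per transcript cluster. Tool versions, the variant of RMA and the build were not given in the sources used here. Array medians lay between 4.58 and 4.66 log2 units and the highest values reached 19.93, so folds are stated on the deposited scale. Of 67528 clusters, 23781 carried 1 gene symbol, updated through RefSeq (GRCh38.p14), and the cluster with the highest mean stood for a gene with several. Each of the 9 measured genes had 1 cluster.

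Genes with a mean above the 30th percentile entered a limma fit (limma 3.58.1, R 4.3.3; 2 groups, no block, 5.66 degrees of freedom after moderation). Levels, SE and intervals are in log2 units, and tests were 2-sided. The difference between 2 paralogs used the per-array difference with the prior variance of the fit doubled. On simulated data over 15679 genes for CTNNB1 siRNA against control siRNA, the fit recovered 94% of 67 genes changed 1.5-fold and 98.5% of 67 changed 2-fold. Among its calls, 6.25% were false. The simulation changed far fewer genes than the 30.3% called here, and its noise was independent between arrays with the moderated spread. Its rates therefore need not hold for the real arrays. Plots used matplotlib 3.10.9 under Python 3.11.15.

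The genes and lists were chosen with earlier results of these data known. The text names the 10 genes, CTNNB1, the 10 pathway target genes and up to 5 called genes with the largest change per co-regulator list, and says where a gene was named after its value was seen. The markers of other cells were named from their list. The labels call the samples biological replicates without saying whether they were separate cultures, so p-values measure only the spread between these samples, which may be technical. Alternatives were other level filters, normalizations and eBayes settings, all clusters, a replicate block and leaving out each array. Scanner files were not used here.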

Additional observations from a re-analysis of the deposited data

How the results depend on the processing

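Under the 8 alternatives that kept all 4 arrays, TCF7L2, BCL9, BCL9L and TLE1 passed the threshold with the same sign in each, and TCF7L1 and PYGO2 passed in none. TCF7L2 passed only narrowly with the replicate block, at an adjusted p of 0.047 in limma. The largest adjusted p over these 8 was 0.038 for TLE1, 0.027 for BCL9L and 0.026 for BCL9. TLE3 failed in 1, with all clusters tested. That setting also left 6 of 25 co-activators and 3 of 20 co-repressors and inhibitors called, beside 4318 of all 67528 clusters. Those clusters were taken at any level, so they are not matched in level to the listed genes. The setting adjusts over 67528 clusters and also estimates the moderated spread anew. Genes called over the whole array numbered between 3898 and 4818 under these 8 alternatives. With the replicate block 3898 genes were called, and 5 of the 7 genes, as without it. Co-activators called then numbered 13 in place of 15, with TNIK gained, and co-repressors and inhibitors 4 in place of 5. Same-numbered arrays deviated together with a correlation of 0.27 across genes. Whether they shared a culture or a run is not given by the labels and was not tested, so counts with and without the block are given.

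With any 1 array left out, 1 residual degree of freedom remained and the lone array was assumed to vary like the other group. Then limma called 0 genes over the whole array, 0 of the 7 genes, 0 co-activators and 0 co-repressors and inhibitors at an adjusted p of 0.05. Unadjusted, between 4732 and 4930 genes had a p under 0.05, and 4 or 5 of the 7 genes. The CTNNB1 log2 fold change lay between -3.63 and -3.48, that of TCF7L2 between -0.87 and -0.58, that of BCL9L between 0.56 and 0.64, that of TLE1 between -0.54 and -0.48 and that of TLE3 between -0.57 and -0.41. No sign changed among the 7 genes. Averaging several clusters of a gene or taking another cluster gave no further value, since each gene had 1.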

Other observations

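3 clusters with symbols built on those of these genes, picked by symbol and not by position, are described after their values were seen. TCF7L1-IT1, an intronic transcript of TCF7L1, read 5.67 and 5.39 log2 units with CTNNB1 siRNA, against 6.06 and 5.89 with control siRNA. LEF1-AS1, the antisense transcript at LEF1, read 4.17 and 4.08 with CTNNB1 siRNA, against 4.17 and 4.0 with control siRNA. TLE1P1, a pseudogene of TLE1, read 6.92 and 6.64 with CTNNB1 siRNA, against 6.96 and 7.15 with control siRNA.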
